A study of Rattus norvegicus with 110 samples.

Results

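Kidney mRNA was compared between F2 male rats whose F0 grandsire and F1 sire had both received carbon tetrachloride (CCl4) and F2 males with neither ancestor treated. The libraries were chosen by the first digits of the animal number, which give the group: group 20 (F0-treated/F1-treated) held 7 kidney libraries and group 11 (F0-control/F1-control) held 7. These are 14 of 27 kidney libraries and of 110 libraries in the series. All 18374 genes that passed a filter on low counts, of 31998 listed, entered the comparison, so no gene was selected by its values.

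The series asked whether liver injury of male ancestors leaves a trace in the tissues of unexposed or re-exposed descendants, and kidney was measured as an organ beside the liver. All animals were outbred Sprague Dawley rats. Males of F0 and F1 received CCl4, at 50% in olive oil, or olive oil alone by oral gavage 3 times per week for 6 weeks from 9 to 11 weeks of age, recovered for 2 weeks and were mated to untreated females. The F2 males described here never received CCl4: both groups were given olive oil at 0.5 mL/kg on the same schedule for 39 days, and tissue was taken about 24 hours after the last dose. Group 20 descended from 7 different F0 grandsires and 7 F1 sires, and group 11 from 6 and 7. Both groups were spread over the same 4 necropsy dates with 2, 2, 1 and 2 animals each. The remaining kidney libraries came from olive oil males with a treated F1 sire only (group 14, 7 animals) or a treated F0 grandsire only (group 17, 6 animals). The animals carry no transgene or engineered allele, and CCl4 given by mouth reaches the whole ancestor and not its liver alone. The hour of necropsy of single animals and the share of cortex and medulla in each kidney piece are not given in the sources used here.

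The kidney filters blood and recovers water, salt and nutrients along tubule segments with specialized cells, among them the proximal tubule, which takes up most of the filtrate, and the acid-base regulating intercalated cells of the collecting duct. Its transcriptome follows the circadian clock, a loop in which BMAL1 (*Arntl*) and CLOCK drive genes of the period, cryptochrome and REV-ERB families, whose proteins in turn repress the activators. It also responds to glucocorticoids, adrenal hormones with a daily rhythm that act through the glucocorticoid receptor on genes such as *Zbtb16*, *Fkbp5*, *Tsc22d3* and *Per1*.

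Kidney libraries held 21961746 to 35055218 estimated counts, 23648101 to 31696916 in group 11 and 24781798 to 35055218 in group 20. The podocyte gene *Nphs1* (64.2 to 115 CPM, counts scaled to a common library total, in kidney and 0.706 to 2.6 in liver), the proximal tubule receptor *Lrp2* (2790 to 4870 against 3.4 to 27) and the intercalated cell factor *Foxi1* (28.1 to 56.6, and listed at 0 in liver) marked the libraries as kidney. No library was a copy of another (351 pairs). Group 11 replicate 2 and group 20 replicate 10 stood apart from the rest of their groups on the second principal component, and the mitochondrial transcript *Mt-co1* took 2.95% to 5.01% of the counts in group 20, lowest in replicate 10, against 4.78% to 5.67% in group 11. Among the first 4 components, the groups differed most on PC3 (9.15% of the variance), with mean scores of -4.79 ± 3.84 (SD, n = 7) in group 11 and 3.45 ± 6.82 in group 20. The two-sided exact permutation p was 0.0163 and 0.0653 after adjustment over 4 components. PC1, PC2 and PC4 (21.2%, 12.2% and 4.49% of the variance) had exact permutation p values of 0.559, 0.547 and 0.450. In its own kidney components, the study set PC1 and PC2 aside as likely due to sample processing, which was not tested here.

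In kidney, 129 genes differed between groups 20 and 11 at an adjusted p under 0.1 in edgeR's quasi-likelihood test (0.702% of those tested). Of these, 79 were higher in group 20 (0.43%) and 50 were lower (0.272%). Of the 129, 65 differed by less than 1.5-fold and 18 by more than 2-fold. The median log2 fold change was 0.63 among the higher genes (0.25 to 2.93) and -0.53 among the lower ones (-4.24 to -0.18), against 0.02 over all genes tested. At an adjusted p under 0.05 there were 28 genes, and the smallest adjusted p was 0.0338, which many genes shared. For 95 genes, every animal of one group lay above every animal of the other (0.517%), and 47 of these genes were called. A symbol was available for 58 of the 129. Symbols came only from gene tables that the study built on these samples, and 3.93% of the 1477 tested genes with a symbol were called, so the named genes below are not an even sample of the 129.

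**Figure D1:**
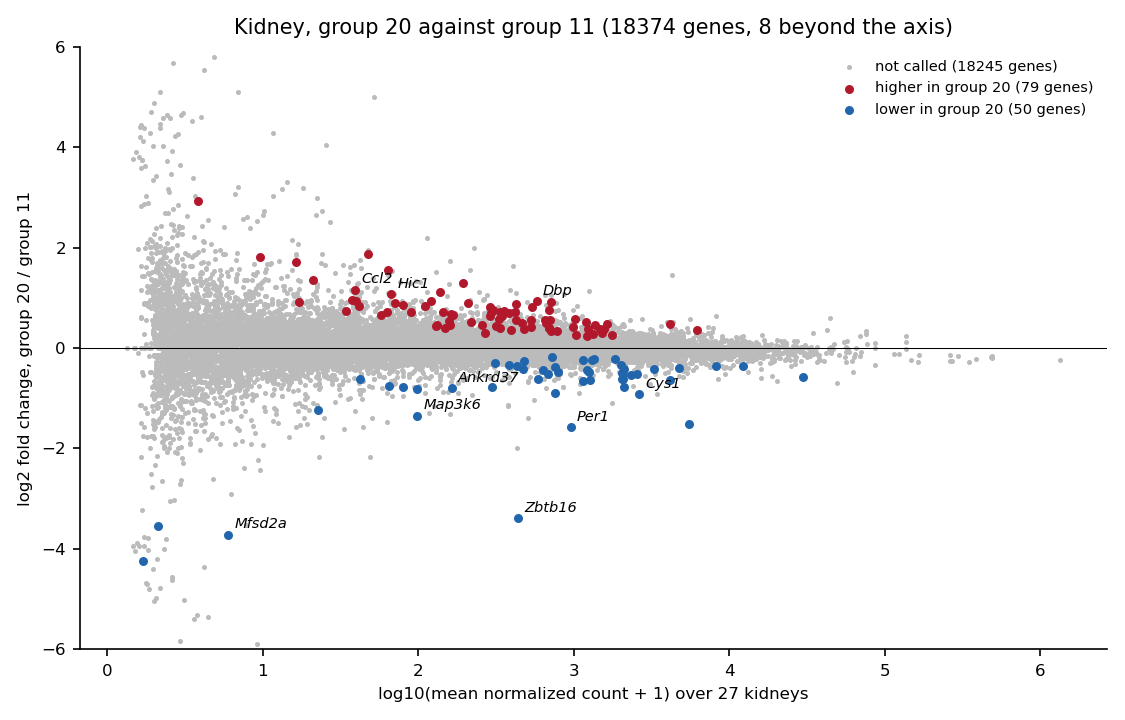
Each point is a gene, with the mean normalized count on a log axis (x) and the log2 fold change of group 20 over group 11 in kidney (y), and the called genes are coloured by direction. The 79 higher and 50 lower genes span log2 fold changes from -4.24 to 2.93, with 18 of the 129 over 2-fold, and 8 genes beyond the y axis limits, none of them called, are not drawn.

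Among the genes lower in group 20, *Ankrd37*, *Cys1*, *Wdr33* and *Yeats2* led with no overlap between groups. *Ankrd37* (ENSRNOG00000031335.4), an ankyrin repeat gene induced in low oxygen, had 188, 214 and 245 normalized counts as the lowest, median and highest value in group 11 and 94.4, 126 and 152 in group 20. All 7 animals of group 20 lay below all 7 of group 11, with a log2 fold change of -0.80 (SE 0.14, adjusted p = 0.0338). *Cys1* (ENSRNOG00000058891.1) encodes cystin, a protein of the primary cilium of tubule cells. It had 2820, 3891 and 4503 normalized counts in group 11 and 1191, 1965 and 2580 in group 20. The groups were again separate, and the level in group 20 was 0.53 times that in group 11 (log2 -0.92, SE 0.18, adjusted p = 0.0338).

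*Wdr33*, a subunit of the complex that cleaves and polyadenylates pre-mRNA, had 2212, 2447 and 2673 normalized counts in group 11 and 1483, 1672 and 2054 in group 20. *Yeats2*, a subunit of the ATAC histone acetyltransferase, had 2502, 2738 and 3156 in group 11 and 1618, 2015 and 2210 in group 20. Neither gene overlapped between groups, and their log2 fold changes of -0.51 (SE 0.09) and -0.53 (SE 0.10) had the same adjusted p of 0.0338. *Tmem39b*, a transmembrane protein gene, was also separate, at 584 to 870 in group 11 and 419 to 554 in group 20 (log2 -0.61, SE 0.12, adjusted p = 0.0338). For *Tsku*, a secreted leucine-rich repeat protein, the groups met at their edges, with 1921, 2768 and 3310 in group 11 and 884, 1517 and 1984 in group 20 (log2 -0.77, SE 0.15, adjusted p = 0.0338).

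Smaller decreases with narrow spreads were seen for *Ncoa4*, the receptor that carries ferritin to autophagosomes, and for *Ttpal*, *Dcun1d2* and *Krt80*. *Ncoa4* had a median of 9445 normalized counts in group 11 (8374 to 10757) and 7312 in group 20 (6654 to 8537), a log2 fold change of -0.36. *Ttpal*, a gene related to the tocopherol transfer protein, had 497 to 602 in group 11 and 317 to 472 in group 20 (log2 -0.42). *Dcun1d2*, which acts in attaching NEDD8 to cullins, had 297 to 352 in group 11 and 259 to 300 in group 20 (log2 -0.30), so the lowest animal of group 11 reached the range of group 20. All 3 genes had an adjusted p of 0.0338. The keratin gene *Krt80* did not overlap between groups, with 771 to 991 in group 11 and 558 to 718 in group 20 (log2 -0.38, SE 0.08, adjusted p = 0.05001). *Septin8*, a cytoskeletal GTPase, had 2110 to 3001 and 1382 to 2244 (log2 -0.42, adjusted p = 0.0744).

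Among the genes with the largest decreases were also *Map3k6*, a kinase of the MAP kinase cascades, and *Rapgef5*, an activator of Rap GTPases. *Map3k6* had 108, 138 and 255 normalized counts in group 11 and 39.6, 60.9 and 82.6 in group 20, with no overlap (log2 -1.34, SE 0.33, adjusted p = 0.0871). *Rapgef5* had 822, 971 and 1358 in group 11 and 319, 618 and 669 in group 20, also with no overlap (log2 -0.89, SE 0.23, adjusted p = 0.0986). Both passed the threshold narrowly.

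Among the genes higher in group 20, *Rnf144a* and *Tril* led. *Rnf144a* (ENSRNOG00000007370.6), an E3 ubiquitin ligase, had 187, 217 and 268 normalized counts in group 11 and 289, 362 and 458 in group 20. *Tril* (ENSRNOG00000026941.2), a membrane partner of Toll-like receptor 4, had 320, 522 and 651 in group 11 and 685, 884 and 1306 in group 20. The groups did not overlap for either gene, and group 20 stood at 1.68 times the level of group 11 for *Rnf144a* (log2 0.75, SE 0.13) and at 1.89 times for *Tril* (log2 0.92, SE 0.16), both with an adjusted p of 0.0338.

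*S1pr3*, a receptor for sphingosine 1-phosphate, had 342, 398 and 497 normalized counts in group 11 and 449, 816 and 936 in group 20 (log2 0.81, SE 0.16, adjusted p = 0.0338). Its values in group 20 fell into 3 animals near the top of the group 11 range and 4 far above it. *Nuak1*, a kinase related to AMPK, had 221 to 389 in group 11 and 360 to 670 in group 20 (log2 0.71, SE 0.14, adjusted p = 0.0338), with 6 of 7 animals of group 20 above all of group 11.

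Of transcriptional regulators, *Bcl3*, a nuclear member of the IκB family, was separate between groups, at 77.0 to 125 normalized counts in group 11 and 145 to 236 in group 20 (log2 0.72, SE 0.15, adjusted p = 0.0338). *Hic1*, a zinc finger repressor, was more than 2-fold higher at low counts, with 27.6, 43.0 and 61.4 in group 11 and 51.5, 91.5 and 108 in group 20 (log2 1.08, SE 0.21, adjusted p = 0.0338). The homeobox gene *Hlx* had 47.5 to 71.3 and 70.3 to 137 (log2 0.85, SE 0.18, adjusted p = 0.05001), and the zinc finger gene *Zfp467* had 480 to 694 and 625 to 858 (log2 0.39, adjusted p = 0.0584). The chemokine gene *Ccl2* had the largest fold change of the named genes called higher, with 17.1, 25.02 and 39.7 in group 11 and 26.98, 54.3 and 103 in group 20 (log2 1.17, SE 0.28, adjusted p = 0.0815), where 5 of 7 animals of group 20 lay above all of group 11.

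The other named genes of this direction changed by less. *Kank2*, an adaptor of focal adhesions, had 997 to 1140 normalized counts in group 11 and 1146 to 1703 in group 20 with no overlap (log2 0.38, SE 0.07, adjusted p = 0.0338). *Ehd4*, an endocytic trafficking gene, *Spsb4*, an adaptor of a ubiquitin ligase, and *Plekhh3* had log2 fold changes of 0.45, 0.55 and 0.41. *Rassf3*, of the Ras association family, and *Phldb1*, which anchors microtubules at the cell cortex, had 0.30 and 0.26. Adjusted p ranged from 0.0338 to 0.0678 over these 6 genes, and *Plekhh3*, *Rassf3* and *Phldb1* did not overlap between groups.

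**Figure D2:**
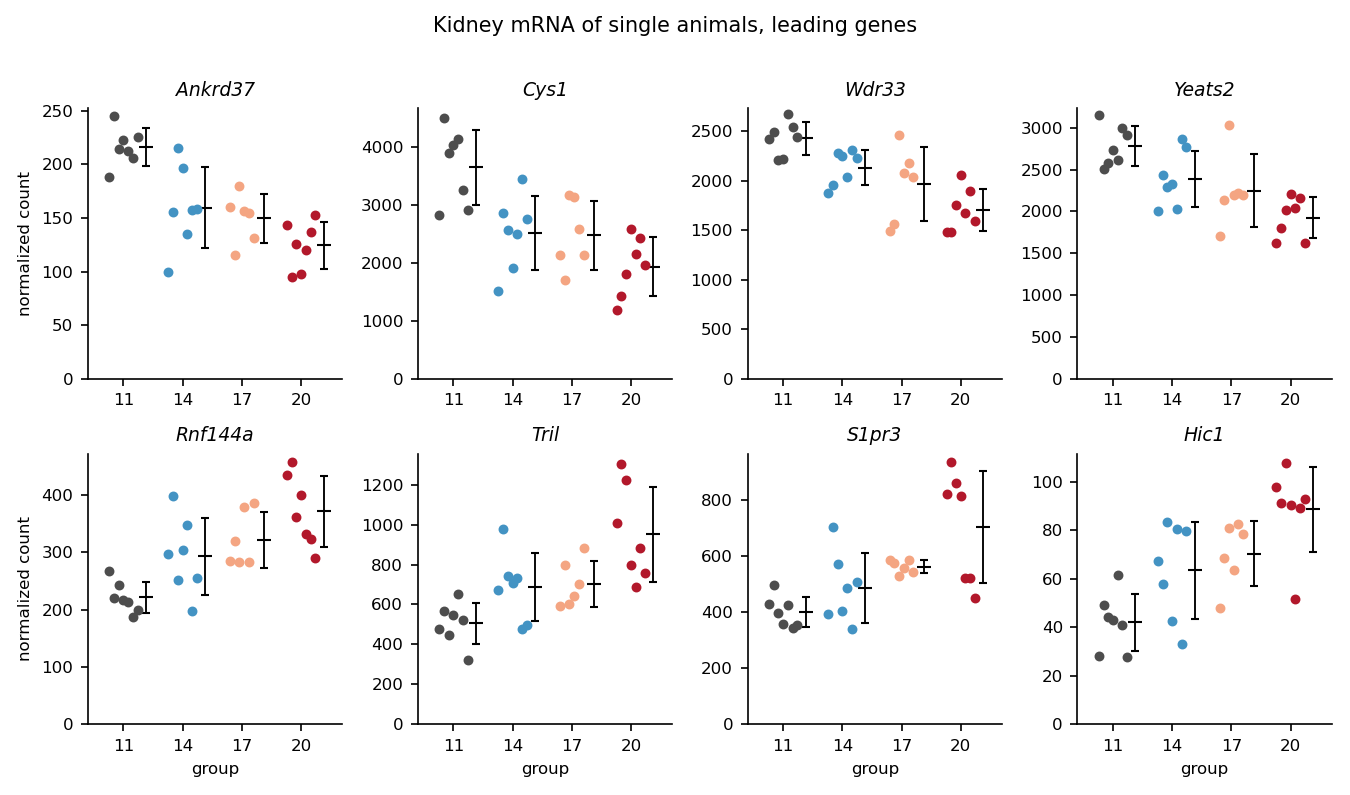
Normalized counts (y, linear axes from 0) of 8 leading genes in each kidney library of groups 11, 14, 17 and 20 (x), 1 point per animal, with the mean and 1 SD as bars. *Ankrd37*, *Cys1*, *Wdr33*, *Yeats2*, *Rnf144a* and *Tril* do not overlap between groups 11 and 20, and groups 14 and 17 lie between them on average.

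Among clock genes, *Arntl* and *Per1* were lower and *Dbp* and *Per3* higher. Of a list of 5 genes made up of the activators and of genes peaking near them, 2 were tested (*Arntl* and *Cry1*) and 1 was called. Of 14 genes of the repressor and output arm, 8 were tested and 3 were called. The share called was 0.702% over all genes and 3.93% over those with a symbol, and the clock genes tested come only from the study's gene tables, which were selected on these samples. *Arntl* (ENSRNOG00000014448.8) had 1237, 1474 and 1537 normalized counts in group 11 and 861, 1044 and 1235 in group 20. The groups did not overlap, although the highest animal of group 20 almost reached the lowest of group 11 (log2 -0.47, SE 0.09, adjusted p = 0.0338). *Cry1*, a repressor with a late phase, did not overlap either, at 347 to 483 and 191 to 343, but its log2 fold change of -0.65 did not pass the test (adjusted p = 0.125).

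*Dbp*, a transcription factor driven directly by BMAL1, had 274, 425 and 567 normalized counts in group 11 and 473, 819 and 1036 in group 20 (log2 0.94, SE 0.21, adjusted p = 0.0744), with 6 of 7 animals above all of group 11. *Per3* had 146, 220 and 259 in group 11 and 195, 370 and 547 in group 20 (log2 0.82, SE 0.20, adjusted p = 0.0815). *Per1* went the other way, from 552, 1831 and 3083 in group 11 to 392, 513 and 844 in group 20 (log2 -1.57, SE 0.38, adjusted p = 0.0815). Its spread in group 11 was wide and its lowest animals lay within the range of group 20.

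The REV-ERB genes fell just outside the threshold. *Nr1d1* passed it in 10 of 17 other settings and *Nr1d2* in 11, and both stayed outside it in 10 of 14 fits without 1 library. *Nr1d1* had 481, 837 and 1137 normalized counts in group 11 and 1130, 2116 and 2364 in group 20 (log2 1.15, SE 0.30, adjusted p = 0.1001), and *Nr1d2* had a log2 fold change of 0.52 with the same adjusted p. *Usp2*, *Cry2* and *Wee1* had log2 fold changes of -0.79, 0.10 and 0.04 (adjusted p of 0.133, 0.679 and 0.934). The median log2 fold change was 0.31 over the 8 tested genes of the repressor and output arm, against 0.02 over all genes. These genes cycle over the day, and the part of the hour of necropsy in their differences was not tested.

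Promoter sequences are shown for 3 genes of these results, the leading gene *Ankrd37* and an activator and a repressor of the clock. They were taken from RefSeq on rat build GRCr8 and run from 250 bases before to 50 after the start of the gene. Capitals mark the letters CACGTG, the E-box bound by BMAL1 with CLOCK, or AGGTCA, the half-site read by the REV-ERB and ROR receptors, searched on both strands. Each gene was searched for 1 of these motifs, and starts without it were not shown. The matches below were therefore fixed by this choice. *Ankrd37* lies at chr16:53001257-53001556 (plus strand), *Arntl*, listed in RefSeq as Bmal1, at chr1:176766078-176766377 (plus strand), and the start of *Nr1d1* shown, 1 of 2 listed, at chr10:84229405-84229704 (minus strand).
Ankrd37: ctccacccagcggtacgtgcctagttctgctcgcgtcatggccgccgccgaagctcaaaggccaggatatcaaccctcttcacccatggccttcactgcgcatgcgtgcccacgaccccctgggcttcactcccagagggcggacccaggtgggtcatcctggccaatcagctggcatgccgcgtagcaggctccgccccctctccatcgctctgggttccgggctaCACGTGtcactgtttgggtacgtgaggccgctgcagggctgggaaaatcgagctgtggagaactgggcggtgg
Arntl: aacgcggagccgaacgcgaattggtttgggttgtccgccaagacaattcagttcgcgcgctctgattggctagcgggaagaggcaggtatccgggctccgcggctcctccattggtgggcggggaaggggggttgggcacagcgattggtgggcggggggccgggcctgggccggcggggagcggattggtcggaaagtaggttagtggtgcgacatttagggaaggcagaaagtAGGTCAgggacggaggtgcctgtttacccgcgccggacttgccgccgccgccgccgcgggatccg
Nr1d1: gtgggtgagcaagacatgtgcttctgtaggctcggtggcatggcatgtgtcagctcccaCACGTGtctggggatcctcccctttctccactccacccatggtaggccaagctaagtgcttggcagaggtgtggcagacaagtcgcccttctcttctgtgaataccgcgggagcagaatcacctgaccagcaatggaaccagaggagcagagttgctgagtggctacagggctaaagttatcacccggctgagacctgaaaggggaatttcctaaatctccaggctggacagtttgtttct
Promoters were found for 48 of the 58 called genes with a symbol. CACGTG occurred in 8.33% of them and in 6.42% of all 33469 listed promoters, AGGTCA in 18.8% and 16.2%, and AGAACA, a half-site of the glucocorticoid receptor, in 12.5% and 20.7%. Only the first listed start of each called gene was searched, whereas every listed start of a gene entered the background. The shares are thus not counted alike. AGGTCA and AGAACA end in the letters CA with which CACGTG begins, so neighbouring matches can share letters, and a match describes the sequence only.

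Of 15 listed glucocorticoid-induced genes, 6 were tested and 2 were called (*Zbtb16* and *Per1*, both lower), against 0.702% of all genes and 3.93% of the genes with a symbol. The 6 log2 fold changes were negative, with a median of -1.12, against 0.02 over all genes. The 6 could be tested because their symbols stood in the gene tables that the study selected on these samples, so they are not independent evidence of a direction. *Zbtb16* (ENSRNOG00000029980.3), which encodes the transcription factor PLZF, had 349, 743 and 1465 normalized counts in group 11 and 22.6, 66.2 and 121 in group 20. Every animal of group 20 lay below every animal of group 11, and the level was 0.0955 times that of group 11 (log2 -3.39, SE 0.72, adjusted p = 0.0451).

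*Tsc22d3*, which encodes the anti-inflammatory protein GILZ, had 1540, 2512 and 3545 normalized counts in group 11 and 763, 1071 and 1664 in group 20 (log2 -1.09, SE 0.29, adjusted p = 0.1001), with 6 of 7 animals below all of group 11. *Fkbp5*, a co-chaperone of the glucocorticoid receptor, had 2981, 4009 and 5062 in group 11 and 1327, 2661 and 3743 in group 20 (log2 -0.71, adjusted p = 0.245). *Cdkn1a*, a cell cycle inhibitor, and *Klf9* had log2 fold changes of -1.14 and -0.44 (adjusted p of 0.280 and 0.322). These 4 genes did not pass the test. *Tsc22d3* lay at the threshold and passed it in 11 of 17 other settings and in 4 of 14 fits without 1 library, *Cdkn1a* in 2 and 0, and *Fkbp5* and *Klf9* in none. *Per1* belongs to the clock and to the glucocorticoid list, and plasma corticosterone was not used here.

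**Figure D3:**
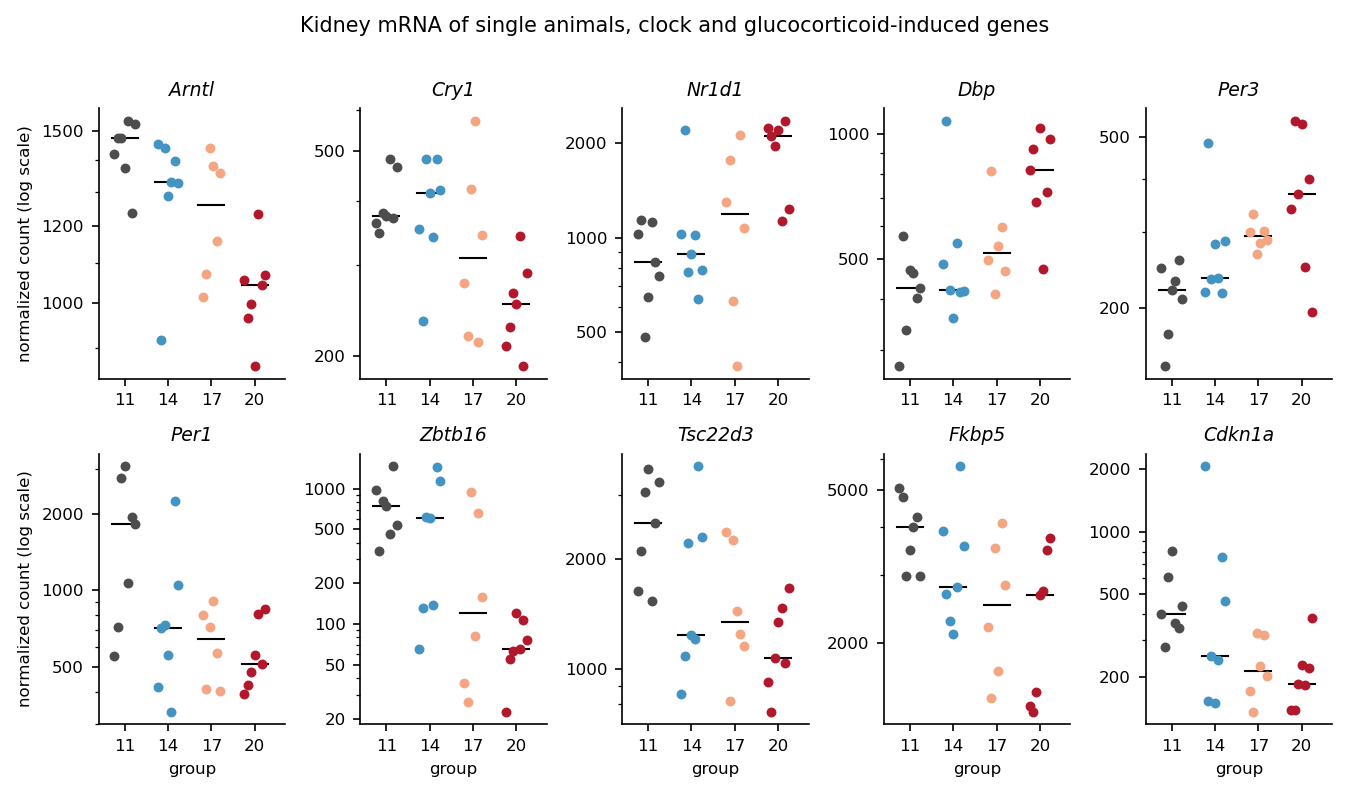
Normalized counts (y, log axes) of 6 clock genes and of *Zbtb16*, *Tsc22d3*, *Fkbp5* and *Cdkn1a* in each kidney library of groups 11, 14, 17 and 20 (x), with a line at the group median. *Arntl*, *Zbtb16* and *Cry1*, of which *Cry1* was not called, are lower in all animals of group 20 than in any of group 11. *Zbtb16* spreads from 65.5 to 1448 in group 14 and from 26.9 to 944 in group 17.

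Most other lists were measured in small part. None was called of 30 tested genes of ribosome biogenesis, 8 histone demethylases, 4 genes of DNA methylation, 3 of tubule injury, 3 of cholesterol synthesis and 4 immediate early genes. With 0.702% of all genes called and 3.93% of those with a symbol, lists of this size would hold few or no calls at the background share, so these zeros say nothing about the members. The immediate early genes had positive log2 fold changes of 0.30 to 1.29, the highest for *Fos*, at 19.9, 46.2 and 79.6 normalized counts in group 11 and 50.9, 91.6 and 275 in group 20 (adjusted p = 0.205). The ribosome biogenesis genes had a median of -0.05 (-0.26 to 0.28), and the tubule injury genes lay between -0.00425 and 0.21. *Herpud1*, which acts in the disposal of misfolded proteins from the endoplasmic reticulum, was lower and separate between groups, at 4902 to 5835 and 3667 to 4689 (log2 -0.39, SE 0.10, adjusted p = 0.0973); it was the only tested gene of 10 in its list. *Vegfa*, the only other tested gene of the hypoxia list with *Ankrd37*, had a log2 fold change of 0.04. *Acer2*, an alkaline ceramidase of the Golgi, was lower at 3430 to 4327 and 2496 to 3639 (log2 -0.42, SE 0.10, adjusted p = 0.0885). It and *Zbtb16* were the 2 called of 8 tested genes that the study singles out. The others had log2 fold changes of 0.11 (*Lpin1*), -0.05 (*Slc10a2*, adjusted p = 0.964), 0.08 (*Ahr*), 0.10 (*Il17ra*), 0.04 (*Vegfa*) and 0.12 (*Ski*). Only 95 of the 390 listed symbols could be matched to a tested gene, so these counts leave most list members unmeasured.

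Markers of kidney cell types could be read for 12 of 130 listed symbols, in 7 of 22 lists. *Foxi1*, the transcription factor that defines intercalated cells, was lower and did not overlap between groups, at 1217, 1419 and 1583 normalized counts in group 11 and 796, 1088 and 1155 in group 20 (log2 -0.44, SE 0.11, adjusted p = 0.0815). The other tested gene of its list, *Kit*, had a log2 fold change of -0.15 (adjusted p = 0.617), and the sum of both ranged from 2120 to 2529 in group 11 and from 1636 to 2165.9 in group 20. *Ehd3*, a gene of glomerular endothelium, was lower at 1171 to 1779 and 800 to 1270 (log2 -0.63, SE 0.15, adjusted p = 0.0819), whereas the endothelial receptor *Kdr* had a log2 fold change of -0.06. *Ehd3* had 28 to 66 CPM in kidney and 37.9 to 90.7 in liver, so it was not particular to glomeruli in these animals. It was also lower in liver (log2 -0.67, edgeR adjusted p = 0.0041).

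The proximal tubule enzyme of creatine synthesis, *Gatm*, had 41461, 63916 and 87025 normalized counts in group 11 and 20391, 39286 and 50518 in group 20 (log2 -0.70, SE 0.20, adjusted p = 0.115), and *Lrp2* had a log2 fold change of -0.12. Neither passed the test, and their sum ranged from 141007 to 222645 and from 117846 to 181883. The podocyte gene *Nphs1* (-0.22), the distal convoluted tubule channel *Trpm6* (-0.46) and the macrophage genes *Adgre1*, *C1qb* and *Cd163* (-0.32, -0.21 and -0.68) did not pass it either. The summed macrophage level was 524 to 963 in group 11 and 501 to 629 in group 20, and the adipocyte gene *Cidec* (log2 fold change 0.02) had 1113 to 1812 and 1089 to 1735. *Cidec* was the only tested gene of 6 in its list. With 38.4 to 70.1 CPM in kidney and 50.9 to 105 in liver, it does not measure fat content here. In whole tissue, fewer cells of a type and less RNA per cell cannot be told apart, and the part of the tissue's makeup in the called genes was not tested.

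No gene passed edgeR's test between group 20 and either group with 1 treated ancestor. None was called against group 17 (0%, with 632 at an unadjusted p under 0.05) or against group 14 (0%, with 780) while DESeq2 called 3 and 8. For the leading genes shown in the plot by animal, the means of these groups lay between those of groups 11 and 20, and their ranges overlapped group 20. They also overlapped group 11, except in group 17 for *Ankrd37*, *Rnf144a* and *S1pr3*. For these genes group 17 had 116 to 180, 282 to 386 and 530 to 585 normalized counts, against 188 to 245, 187 to 268 and 342 to 497 in group 11. *Ankrd37* had a median of 158 normalized counts in group 14 (99.2 to 215) and 156 in group 17 (116 to 180), *Cys1* 2574 (1519 to 3455) and 2364 (1700 to 3171), and *Tril* 708 (477 to 980) and 675 (593 to 882). *Zbtb16* had a median of 609 (65.5 to 1448) in group 14 and 120 (26.9 to 944) in group 17, so that animals near the group 20 range and animals near the group 11 range were found in both. Against group 11, edgeR called no gene in group 14 (878 at an unadjusted p under 0.05) or in group 17 (1081), in comparisons that share the group 11 animals with the one above.

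In liver of the same animals, 1136 of 17514 genes were called between groups 20 and 11 (6.49%). Of the 129 kidney genes, 120 were tested in liver and 27 were called there, 26 of them in the same direction, which is 20.9% of the kidney and 2.38% of the liver calls. Over all 16596 genes tested in both organs, 1110 were called in liver (6.69%), 841 of them with the same sign in kidney. The calls in liver were concentrated among genes with a symbol, where 23 of 56 called kidney genes (41.1%) were called in liver against 35.8% of all tested, while without a symbol 4 of 64 were (6.25%) against 3.85%. Within each class the share lay near its background. *Zbtb16* was lower in both organs, with 318 to 2536 normalized counts in liver of group 11 and 38.4 to 328 in group 20 (log2 -3.13, adjusted p = 0.0119). *Arntl* was lower (log2 -0.47 in liver, adjusted p = 0.0139), and *Dbp*, *Per3*, *Kank2*, *Plekhh3* and *Zfp467* were higher, by 2.26, 1.52, 0.88, 0.93 and 0.76 on the log2 scale, in liver as in kidney. *Acer2*, *Rapgef5*, *Ehd3*, *Ttpal* and *Herpud1* were lower in both. The exception was *Tmem39b*, lower in kidney and higher in liver (log2 0.38, adjusted p = 0.0475).

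The difference between the organs was tested within animals by limma on log2 CPM, and 209 of 16596 genes were called (1.26%), 15 of the 120 kidney genes among them. The 120 were called on the same kidney values that enter this difference, which raises their share, and 12 of the 15 have a symbol, a class in which 122 of 1474 genes were called. *Wdr33*, *Yeats2*, *Cys1* and *Tmem39b* had more negative differences in kidney, by -0.66, -0.85, -1.10 and -0.98 on the log2 scale. *S1pr3* and *Spsb4* had more positive differences in kidney, by 0.89 and 1.2, with log2 fold changes of -0.10 and -0.52 in liver. *Dbp* and *Kank2* were higher in both organs but less so in kidney (-1.12 and -0.51), and *Acer2* was lower in both but less so in kidney (0.74). The adjusted p of these 9 differences ranged from 0.0277 to 0.0959. The count of 209 was 11 at an adjusted p under 0.05, and it fell to 5, 12 and 15 without group 11 replicates 9, 10 and 4, to 114 and 82 without replicates 1 and 5, and to 103, 109, 44, 59 and 122 without group 20 replicates 1, 2, 7, 9 and 10. Liver and kidney of an animal share its hour of necropsy and hormonal state, so the organs are not independent samples of the ancestry.

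**Figure D4:**
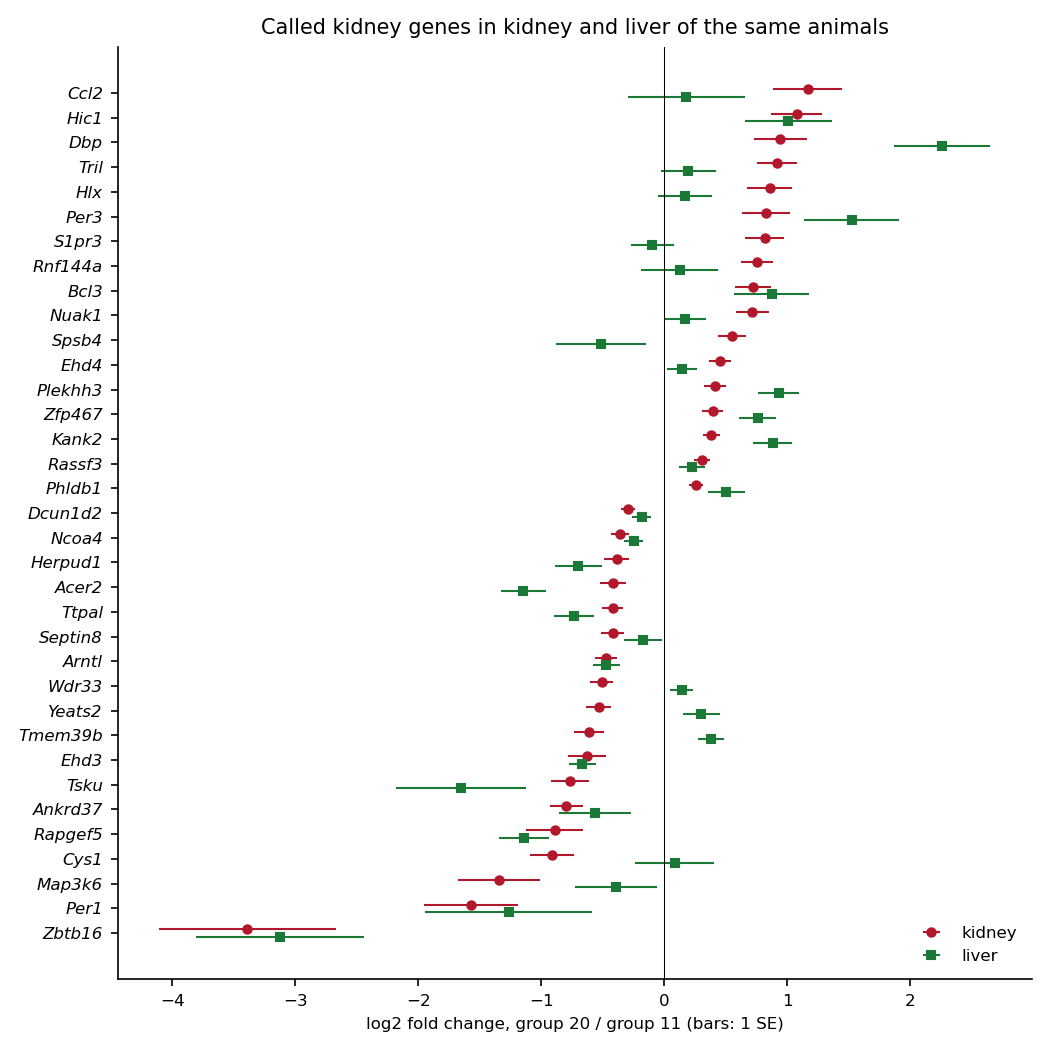
The log2 fold change of group 20 over group 11 (x), with 1 SE on each side, in kidney (circles) and liver (squares) for the named called genes tested in both organs (y), ordered by the kidney value. *Zbtb16* stands near -3 in both organs, while *Wdr33*, *Yeats2*, *Cys1*, *S1pr3* and *Spsb4* lie far from 0 in kidney and at or across 0 in liver.

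The called genes went the same way within most necropsy dates. Within dates 1, 2 and 4, all 129 had the direction of the pooled difference, and within date 3, with 1 animal per group, 96 did. Over all 18374 genes, of which the same animals fix the pooled direction, 12355, 13477, 10282 and 13678 had it on dates 1 to 4. The median absolute log2 difference of the 129 genes was 0.623, 0.646, 0.186 and 0.616 on dates 1 to 4, and over all genes tested it was 0.209, 0.168, 0.2 and 0.234, so the pair of date 3 was no further apart on these genes than on others. The genes were called on these same animals, which fixes much of this likeness. Per gene, the group 20 library nearest to group 11 was replicate 7, of date 3, for 54 of the 129 genes, and the group 11 library nearest to group 20 was replicate 7 for 44 and replicate 2 for 42. On date 3, *Tril* and *Dbp* differed by 0.07 and 0.04 on the log2 scale, whereas *Zbtb16* differed by -2.80, *Ankrd37* by -0.82 and *Rnf144a* by 0.63.

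The number of called genes depended on single animals. Leaving out 1 library at a time gave between 18 (without group 11 replicate 9) and 360 (without group 20 replicate 7) called genes. Without date 2 or date 4 there were 0, with 1376 and 1451 at an unadjusted p under 0.05, and without date 3 there were 426. Without group 11 replicate 2 and group 20 replicate 10, the libraries far out on PC2, there were 286, of which 118 were among the 129 (an alternative chosen after seeing the data). Called whichever library was left out were 13 genes, 7 higher and 6 lower. The 12 of them with a symbol were *Rnf144a*, *Tril*, *Kank2*, *Nuak1*, *S1pr3* and *Hic1*, which were higher, and *Ankrd37*, *Wdr33*, *Yeats2*, *Cys1*, *Arntl* and *Dcun1d2*, which were lower. *Zbtb16* was not among them.

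**Figure D5:**
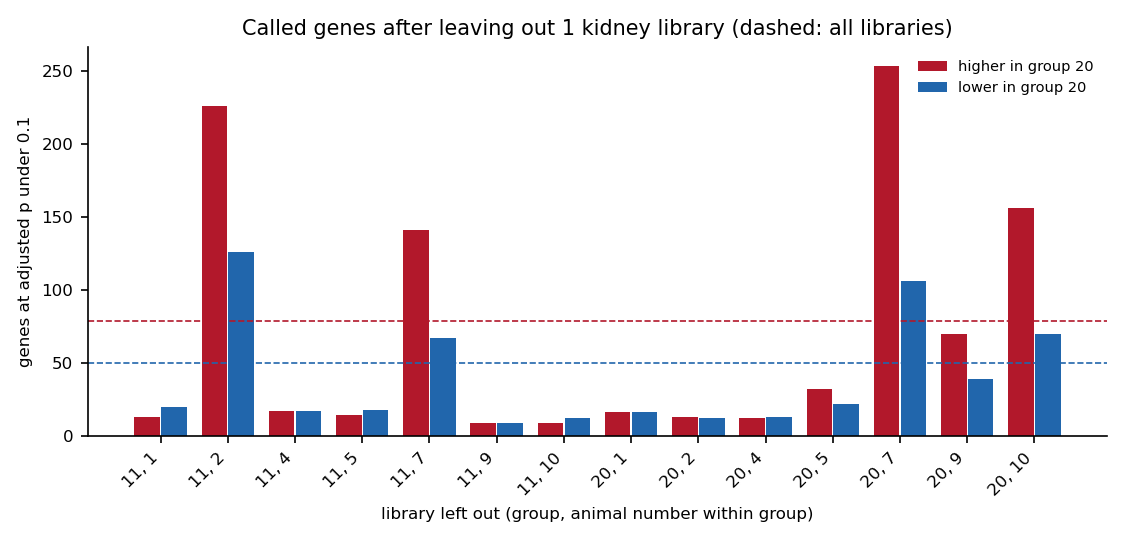
Genes called higher and lower in group 20 (y, at an adjusted p under 0.1) after leaving out each of the 14 kidney libraries in turn (x), with dashed lines at the 79 and 50 of all libraries. Leaving out group 20 replicate 7, group 11 replicate 2, group 20 replicate 10 or group 11 replicate 7 raises the count to between 208 and 360, group 20 replicate 9 leaves 109, and the other libraries lower it to between 18 and 54.

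Gene lists that the study built from these animals are not independent evidence of a direction. Of its 66 kidney genes of F0 treatment, 19 were higher and 20 lower here (59.1%, against 0.702% of all genes and 3.93% of those with a symbol). Of its 69 liver genes of both ancestors, picked partly on liver of groups 11 and 20, 6 were lower and none higher in kidney (8.7%), and of 1503 tested liver genes of F0 treatment, 16 were higher and 16 lower (2.13%).

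Other called genes with a symbol, outside the rule for named genes, were *Dyrk1b*, *Frzb*, *Evpl*, *Epha4*, *Mdfic*, *Sppl2b*, *Nr2f1*, *Adam19*, *Eva1b*, *Rtn4rl1*, *Exoc3l1*, *RGD1565059*, *Ahdc1* and *Kcnj8*, which were higher by 0.335 to 0.743 on the log2 scale, and *Mfsd2a*, *Slc15a4*, *Crem*, *Lrig3*, *Frmd4b* and *Foxk2*, which were lower by 0.24 to 3.72 in size. Of the 71 called genes without a symbol, 47 were higher and 24 lower. Among those with a mean normalized count over 50, ENSRNOG00000054033.1 had the smallest p of the higher ones, at 99.3 to 172 normalized counts in group 11 and 188 to 364 in group 20 (log2 0.89, adjusted p = 0.0338). ENSRNOG00000026965.6 had that of the lower ones, at 2067 to 2972 and 1503 to 2126 (log2 -0.50, adjusted p = 0.0338). At a lower mean count, ENSRNOG00000030034.4 had a smaller p than the former (log2 1.35, adjusted p = 0.0338) and is the gene without a symbol among the 13 called whichever library was left out.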

How the data were processed

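The authors sequenced polyA-selected, stranded kidney mRNA libraries and quantified them with Salmon 0.14.0 against Ensembl rat transcripts, with tximport. The deposited values are estimated counts per gene, summed over transcripts, in whole numbers and not normalized; the deposited average transcript lengths served as offsets in alternatives only. All columns belonged to a listed sample. Groups were taken from the labels. Replicates are separate animals. Those of groups 11, 14 and 20 had different F1 sires, the 6 of group 17 came from 5, and group 11 replicates 4 and 5 share an F0 grandsire.

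Genes with a summed count over 10 in 1 or more kidney groups were tested (18374). Counts were normalized by TMM and fitted with edgeR 4.0.16 (quasi-likelihood, all 27 kidney libraries) in R 4.3.3, with Benjamini-Hochberg adjustment over all genes tested and calls at an adjusted p under 0.1. Normalized counts are counts divided by TMM-scaled library size, set to a common size. Non-overlap and group ranges use these values. Organs were compared by limma 3.58.1 on the within-animal difference of log2 CPM (prior count 2). Components used DESeq2 1.42.0 variance-stabilized values of the 1000 most variable genes. The scripts were tested on simulated data.

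The comparison, the gene lists and the tests were chosen with earlier results of these data known. Named genes were the called genes with a symbol and a mean normalized count over 50 (the 15 higher and 15 lower with the smallest adjusted p, and 5 of each with the largest fold change), called list members, up to 4 members per list by smallest p, and *Zbtb16*, *Lpin1*, *Acer2*, *Slc10a2*, *Dcun1d2*, *Krt80*, *Gatm*, *Atp1b1* and *Arntl*; list members at an unadjusted p over 0.05 that mark no cell type are given mostly by counts and ranges. *Nr1d1*, *Cry2*, *Usp2*, *Wee1*, *Klf9* and *Cdkn1a* complete lists outside this rule and were added after their values were seen. An item withheld from the text is not reported here. Same-numbered animals of the groups did not deviate together (7 pairs, r from -0.172 to 0.0488), so the numbers were not taken as pairs. Alternatives were DESeq2, length offsets, DESeq2 size factors, other filters and thresholds, only the compared groups, block terms, PC covariates, limma-voom weights and leaving out libraries or dates.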

Additional observations from a re-analysis of the deposited data

Results flagged for a closer look

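In 156 tests of a single library's distance from its group, 11 values stood apart by Dixon's test, and chance flags about 1 in 20 groups. In group 20, *Hic1* was low in replicate 7 (51.5 normalized counts), and in replicate 10 *Bcl3* was high (236), *Cdkn1a* high (385) and *Ddx21*, a nucleolar helicase, low (1550). In group 11, *Spsb4* was high in replicate 7 (712), *Dcun1d2* low in replicate 9 (297), *Map3k6* high in replicate 5 (255), *Adgre1* high in replicate 4 (563) and *Lrp2* low in replicate 2 (79500). On PC2, group 11 replicate 2 scored -13.0 and group 20 replicate 10 scored -17.4.

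The difference between groups 20 and 11 was itself different in kidney and liver of the same animals for 14 genes of those named or listed, at an adjusted p under 0.1 in limma. The kidney minus liver difference, on the log2 scale, was -0.513 for *Kank2*, -1.12 for *Dbp*, -0.661 for *Wdr33*, -0.851 for *Yeats2*, -1.10 for *Cys1* and -0.978 for *Tmem39b*. It was 0.892 for *S1pr3*, 1.2 for *Spsb4*, 0.735 for *Acer2* and 1.58 for *Lpin1*, a phosphatidate phosphatase gene that was lower in liver (log2 -1.56) and had a log2 fold change of 0.11 in kidney. It was 2.61 for the immediate early gene *Egr1*, -1.58 for *Osgin1*, -0.684 for *Vegfa* and -0.688 for *Ski*, members of the lists that were not called in kidney.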

How the results depend on the processing

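The 37 named called genes kept their direction in all 1147 values under the alternatives, and 298 of these values were no longer past the threshold. Against 129 called genes, DESeq2 gave 552 (125 shared), DESeq2 with length offsets 397, edgeR with length offsets 36 (17 higher and 19 lower, against 79 and 50), a mean count over 10 gave 212, an adjusted p under 0.05 gave 28, PC1 and PC2 as covariates 440, limma-voom weights 717, and leaving out dates 1 to 4 gave 16, 0, 426 and 0. Without the 2 libraries far out on PC2 there were 286 (added after seeing the data). Leaving out 1 library gave 18 to 360, and 13 of the 14 libraries moved the count by over 1.5 times: without group 11 replicates 1, 2, 4, 5, 7, 9 and 10 it was 33, 352, 34, 32, 208, 18 and 21, and without group 20 replicates 1, 2, 4, 5, 7 and 10 it was 32, 25, 25, 54, 360 and 226. The cause was not tested. With the animal number as replicate block 168 genes were called and with the necropsy date as block 174, and the numbers do not pair the animals. Against groups 17 and 14, DESeq2 called 3 and 8, with length offsets 3 and 7, and no other alternative called any. The organ difference (209) became 11 at an adjusted p under 0.05, 578 in only the 2 groups, 397 with date as block, and 5 to 218 without single libraries. The smallest adjusted p over the components (0.0653) was 0.392 on log2 CPM, 0.0816 on 500 genes, 0.042 on all genes and 0.014 to 0.242 without single libraries. Of the 35 named genes not called, 97 of 1085 values passed the threshold and 18 changed sign. Their log2 fold changes were, for *Slc10a2* (-0.05 as reported), 0.0366 with PC covariates, 0.396 without date 2 and -0.202 to 0.147 without single libraries, and for *Cidec* (0.02 as reported) -0.0166 with PC covariates, -0.116 and -0.0682 without dates 2 and 4 and -0.0380 to 0.0860 without single libraries. *Wee1* had -0.0130 without date 1 and -0.0158 to 0.0814 without single libraries, *Lpin1* -0.0338 without date 1 and *Kdr* 0.0208 without date 4. Depth limits *Ccl2* and *Hic1*, whose lowest group 11 libraries had 17.1 and 27.6 normalized counts.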
